A study of Mus musculus with 26 samples.

Results

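The comparison of 2 deletions at the Fgf9 locus, named Δ225 and Δ104, was examined in the gonads of XY mouse embryos at E13.5, a day of embryonic development at which the fetal testis has formed. Its members are the 6 Δ225 and the 4 Δ104 libraries, chosen by the genotype in their names, which is 10 of the 26 samples of the series and 10 of the 22 in the count table that holds all deletions. The other libraries of that table, 3 wild type (WT), 6 of the deletion Δ93 and 3 of the deletion Δ306, entered the same fit. All groups share the age and the chromosomal sex stated in the labels, the removal of the mesonephros, and poly(A)-selected, strand-specific libraries. The samples are labelled as biological replicates, and boundaries of the deletions, zygosity, strain, litters and pooling are not given in the labels used here. P-values therefore measure the spread between these libraries, whatever their source. Differences below are Δ225 minus Δ104, so a negative log2 fold change is a gene lower in Δ225.

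FGF9 is a secreted fibroblast growth factor that signals through FGF receptors and the ERK kinase cascade. In the XY gonad it acts with SOX9 to keep supporting cells on the Sertoli path and to hold back WNT4 signalling, which together with RSPO1 and FOXL2 marks the pre-granulosa path of the ovary. Loss of FGF9 in mice is known for turning XY gonads towards ovarian development, with germ cells entering meiosis.

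The Δ225 libraries held 11.6 to 46.8 M counts, the Δ104 libraries 17.5 to 35.2 M and the WT libraries 38.3 to 53.4 M. Δ225 fell into 2 depth classes, replicates 1 to 3 at up to 23.3 M and replicates 4 to 6 at 41.3 M or more. Mitochondrially encoded genes took 11.6% of counts in Δ225 replicate 1 and 5.47% in replicate 2, against 2.56% to 3.06% in the other Δ225 and 2.69% to 3.29% in the Δ104 libraries. The summed level of the 6 tested Y-linked genes was 0.243 CPM, counts scaled to a library of 1 M, in Δ225 replicate 4, 8.27 to 21.5 CPM in the other Δ225 libraries, 1.92 to 36.8 CPM in Δ104 and 31.9 to 78.1 CPM in WT. Xist, the X-inactivation RNA of cells with more than 1 X chromosome, was at 0.0491 to 3.12 CPM in the 10 libraries. The label XY of Δ225 replicate 4 thus had almost no Y-linked counts behind it. In Δ104 replicate 1 the Sertoli hormone gene Amh was at 0.361 CPM, against 1263 to 1685 CPM in WT, so this library lacked a defining marker of the fetal testis. Counts with and without these libraries are given below.

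Fgf9 itself (chromosome 14, 58070547 to 58112720, plus strand, GRCm38) was at 2.72, 5.16, 6.98 and 4.52 CPM in Δ104 replicates 1 to 4. In Δ225 it ranged from 3.69 to 16.5 CPM with a median of 5.43, and in WT it was at 9.85, 9.21 and 9.55 CPM. The groups overlapped, and the highest value came from Δ225 replicate 3. The difference was 0.54 log2 units (SE 0.35, adjusted p 0.644 by edgeR's quasi-likelihood test), so Fgf9 was not called. Without Δ225 replicate 3 it was 0.08 (adjusted p 0.947, in a range of 0.169 to 0.999 over the alternatives). Of 12 tested FGF ligands and receptors 0 were called, with 2 lower and 10 higher, 2 in each direction at an unadjusted p under 0.05, and a median of 0.51.

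Gm33321, a long intergenic non-coding RNA gene without a name, had the smallest adjusted p of all genes tested. It lies 188 kb beyond the end of Fgf9 (chromosome 14, 58300973 to 58363816, plus strand) and was chosen after its values were seen. It had 59, 30, 14 and 8 counts in Δ104 replicates 1 to 4, or 1.64, 1.47, 0.814 and 0.389 CPM, and 0 counts in all 6 Δ225 libraries. In WT it had 13 to 25 counts, in Δ93 35 to 70 and in Δ306 21 to 36, so Δ225 was the group without reads among the 5. Gm33321 was at least 65.8-fold lower in Δ225 than in Δ104, against a floor of 3 counts over the Δ225 group (adjusted p 2.08e-05 by edgeR's quasi-likelihood test). Against WT, a comparison that shares the Δ225 libraries, it was also called lower (adjusted p 0.000588). It was called under each of the 16 alternatives that tested it, with adjusted p from 1.62e-11 to 0.00710. The fit of Δ225 and Δ104 alone and the fit with a replicate block did not test it, as it did not pass their low-count filter. Of the 21 named called genes tested there, these fits kept 1 and 0, so its calls do not cover the strictest settings. Whether a deletion covers this gene cannot be read from the labels used here, which give no boundaries.

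The other genes around Fgf9 were not called. Within 500 kb of it 12 genes were tested, and Gm33321 was the 1 called. A longer list of 15 tested neighbours, all with gene names, had 0 called by the same test and 0 at an unadjusted p under 0.05. Of these 5 were lower and 10 higher in Δ225, with a median log2 fold change of 0.06.

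Genes downstream of FGF signalling were read from a list of 14 feedback inhibitors and transcriptional targets of the ERK cascade. Of these 0 were called, 12 were higher and 2 lower in Δ225, 6 and 1 of them at an unadjusted p under 0.05, and the median log2 fold change was 0.32, against −0.0088 over all genes tested. Spry1, a Sprouty inhibitor of receptor tyrosine kinase signalling, was at 12.9, 15.7, 20.9 and 32.4 CPM in Δ104. In Δ225 it had a lowest value of 24.0, a median of 34.6 and a highest of 41.2 CPM, and in WT it was at 40.3, 37.0 and 45.8 CPM. Only Δ104 replicate 4 lay inside the Δ225 range, and the difference was 0.69 (SE 0.22, adjusted p 0.188). The related Spry2 and Spry4 had log2 fold changes of 0.32 (SE 0.13) and 0.46 (SE 0.29).

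Across all genes, 148 of 22941 tested were called at an adjusted p under 0.05, which is 0.645%. Of these 142 (0.619%) were lower and 6 (0.0262%) higher in Δ225. At an unadjusted p under 0.05 there were 1485 lower (6.47%) and 938 higher (4.09%). The groups did not overlap at 383 genes (1.67%), 227 of them lower (0.989%) and 156 higher (0.68%), and among the called genes this held for 37 of the 142 lower and 5 of the 6 higher. In the authors' deposited table of this comparison 446 genes had an adjusted p under 0.05, 346 lower and 100 higher, and they include all 148 genes called here. The sign of every called gene stayed the same under each of the 18 alternatives, 2 of which tested only 105 of the 148, but the number of calls did not. It was 9 without Δ104 replicate 1, 62 without replicate 2, 238 without replicate 3 and 557 without replicate 4. It was 113, 83, 182, 108, 74 and 71 without Δ225 replicates 1 to 6 in turn. With the 3 shallower Δ225 libraries alone 23 genes were called, with the 3 deeper ones alone 1170, and in a fit of these groups without the other libraries 1.

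The 4 Δ104 libraries stood in nearly 1 order over the 142 lower genes. Replicate 1 was the highest of the 4 at 129 genes and replicate 4 the lowest at 127. Replicates 1 and 2 exceeded every Δ225 library at all 142 genes and replicate 3 at 126. Replicate 4 exceeded every Δ225 library at 39, lay within their range at 86 and below it at 17. The median level of the 142 genes was 11.1, 5.97, 1.98 and 0.730 CPM in Δ104 replicates 1 to 4, against 0.456 to 0.725 CPM in Δ225 and 0.719 to 0.879 CPM in WT. By these medians Δ104 was graded at these genes and the Δ225 libraries lay closer together. Single genes such as Foxl2 (0.339 to 7.19 CPM) and Fst (2.17 to 14.6 CPM) spread more within Δ225 than the medians did. Both spread wider still in Δ104, at 1.22 to 77.0 CPM and 1.12 to 175 CPM. The 142 genes were chosen by the test on these same libraries, which favours such a pattern. The order therefore describes the chosen genes and is no separate support for the calls. In such bulk samples fewer cells of a type and less RNA per cell cannot be told apart.

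**Figure D1:**
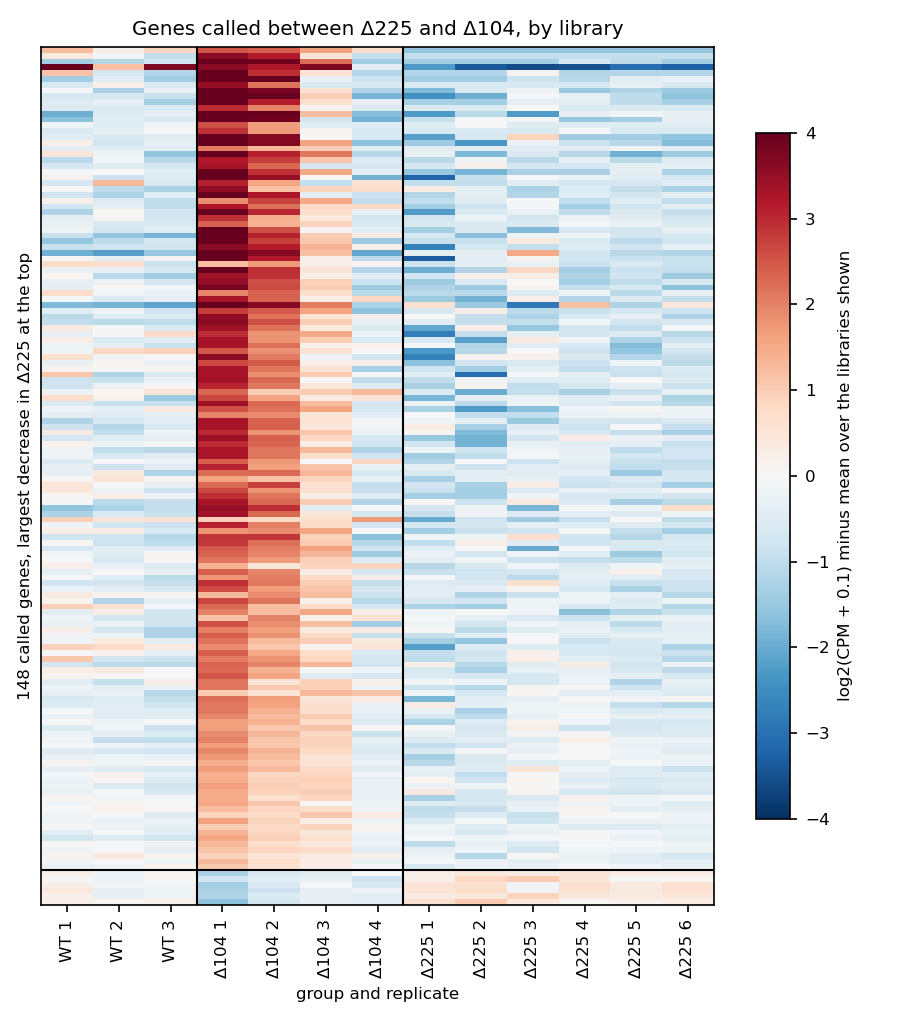
Heat map of the 148 called genes (rows, largest decrease in Δ225 at the top, the 6 higher genes below the horizontal line) in 3 WT, 4 Δ104 and 6 Δ225 libraries (columns); colour is log2(CPM + 0.1) minus the gene's mean over the libraries shown, with red above and blue below it. The upper block is darkest red in Δ104 replicates 1 and 2, paler in replicate 3 and near the colours of WT and Δ225 in replicate 4.

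Pre-granulosa genes were the marker list with the most called members. All 15 tested genes were lower in Δ225, each at an unadjusted p under 0.05, and 6 of them fell at the adjusted threshold. Over all genes tested, 6.47% were lower and 4.09% higher at that unadjusted p, and 0.619% were called lower and 0.0262% higher. Counts in every list of the text are to be read beside these shares. The lists were written with earlier results of these data known, so their counts are not independent of the data. The median log2 fold change was −1.41, and the groups overlapped at all 15. Foxl2, the forkhead factor that maintains granulosa identity (chromosome 9, 98955288 to 98958543, plus strand), was at 77.0, 40.5, 13 and 1.22 CPM in Δ104. In Δ225 it ranged from 0.339 to 7.19 CPM with a median of 2.7, and in WT it was at 0.829, 0.777 and 0.633 CPM. Replicates 1 to 3 of Δ104 were above all Δ225 libraries and replicate 4 was among them. Foxl2 fell by 3.40 log2 units (SE 0.74, adjusted p 0.0317). Fst, which encodes the activin antagonist follistatin, was at 175, 64.8, 11.5 and 1.12 CPM in Δ104. Its Δ225 libraries ranged from 2.17 to 14.6 CPM with a median of 3.35, the highest being replicate 3. Fst fell by 3.70 (SE 0.78, adjusted p 0.0267).

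The Iroquois homeobox genes Irx3 and Irx5, which act in granulosa cells of the developing ovary, lie near each other on chromosome 8. Irx3 (91798525 to 91802067, minus strand) was at 115, 51.4, 12.0 and 1.17 CPM in Δ104 and ranged from 0.694 to 3.24 CPM in Δ225, with a median of 1.55. It fell by 4.72 (SE 0.72, adjusted p 0.00463). Irx5 fell by 3.67 (SE 0.71, adjusted p 0.0135). Both showed the Δ104 order of replicate 1 over 2, 3 and 4. Runx1, a Runt transcription factor of early supporting cells, was at 73.0, 36.3, 14.9 and 3.21 CPM in Δ104 against 2.86 to 9.87 CPM in Δ225, and fell by 2.58 (SE 0.51, adjusted p 0.0151). Bmp2, a BMP ligand of the fetal ovary, was at 76.1, 40.0, 9.24 and 8.27 CPM against 8.42 to 11.3 CPM, and fell by 1.84 (SE 0.42, adjusted p 0.0410). For Bmp2 only Δ104 replicates 1 and 2 were above the Δ225 libraries. Without Δ104 replicate 1, Irx3 was the 1 pre-granulosa gene still called, with a log2 fold change of −3.66, while Foxl2 was at −2.55, Fst at −2.41, Irx5 at −2.76, Runx1 at −1.76 and Bmp2 at −1.04.

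**Figure D2:**
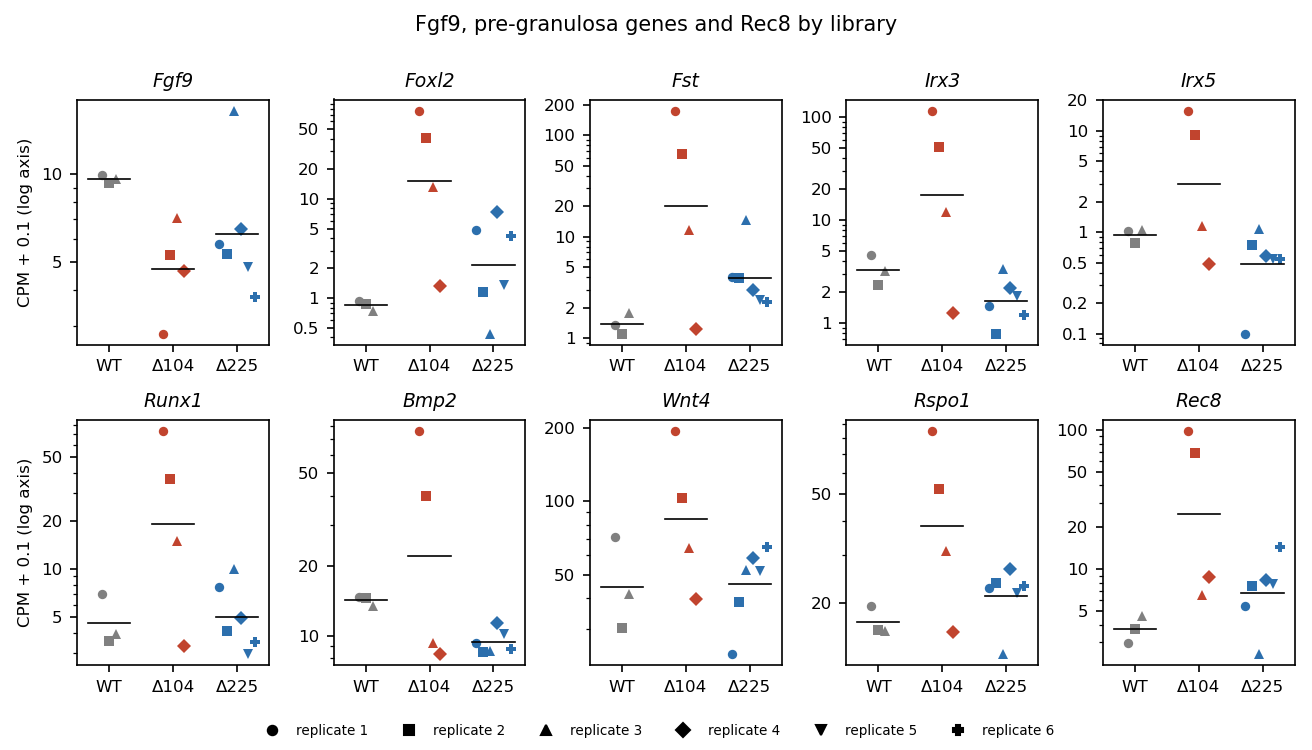
CPM + 0.1 (log axis, its own scale in each panel) of Fgf9, 8 pre-granulosa genes and the meiotic gene Rec8 in WT (grey), Δ104 (red) and Δ225 (blue); each point is a library, marker shapes give replicate numbers within a group, and lines are geometric means. For Foxl2, Fst and Irx3 the Δ104 points spread from 77.0, 175 and 115 CPM in replicate 1 down to 1.22, 1.12 and 1.17 CPM in replicate 4.

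WNT signalling genes overlapped in part with the pre-granulosa list. Of 16 tested, 13 were lower in Δ225, 9 at an unadjusted p under 0.05, 0 were called, and the median log2 fold change was −0.76. Wnt4, the ligand of the ovarian pathway, was at 194, 103, 64.0 and 39.7 CPM in Δ104 and at 23.6 to 64.7 CPM in Δ225 (−1.05, SE 0.36, adjusted p 0.240). Rspo1, which encodes an R-spondin that amplifies WNT signals, was at 85.1, 52.2, 30.9 and 15.6 CPM against 13 to 26.5 CPM (−1.08, SE 0.30, adjusted p 0.118). In both genes Δ104 replicate 4 was within the Δ225 range, and for Wnt4 replicate 3 was too. Both genes were called without Δ104 replicate 4, with log2 fold changes of −1.32 and −1.37. Of 9 tested activin, inhibin and follistatin genes Fst alone was called, and of 13 tested BMP genes Bmp2 alone, with list medians of 0.07 and −0.08. Among 12 tested retinoic acid genes 0 were called, with 3 at an unadjusted p under 0.05 and a median of −0.14.

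The 15 largest decreases among called genes with a mean of at least 1 CPM were led by genes better known from other tissues. Isx, an intestine-specific homeobox gene (chromosome 8, 74873173 to 74893506, plus strand), was at 11.4, 3.64, 1.10 and 0 CPM in Δ104 and at 0 to 0.0662 CPM in Δ225. It fell by 7.36 (SE 1.06, adjusted p 0.00211). Cdx2, a caudal-type homeobox gene of intestine and trophectoderm (chromosome 5, 147300805 to 147307270, minus strand), was at 12.7, 4.23, 0.116 and 0.0486 CPM against 0 to 0.122 CPM, and fell by 6.14 (SE 1.13, adjusted p 0.0116). Chrm4, a muscarinic acetylcholine receptor gene (chromosome 2, 91927249 to 91928688, plus strand), was at 74.5, 21.9, 1.98 and 0.195 CPM against 0.0976 to 0.919 CPM, and fell by 5.75 (SE 0.91, adjusted p 0.00480). At all 3 genes Δ104 replicate 4 was at or near the Δ225 level, and at Cdx2 replicate 3 was within the Δ225 range too. Without Δ104 replicate 1, Isx was still called, while Cdx2 and Chrm4 were not. At such low counts in Δ225 the size of a fold depends on a few reads.

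To show sequence near strong decreases, up to 250 bases before the RefSeq start were read for 4 of these genes with 1 RefSeq promoter entry. They are given on GRCm38 and 5′ to 3′ on the gene's strand. Bases that GENCODE places inside the gene were left out, which leaves 249 for Isx and 229 for Cdx2. The windows are chr8:74872924-74873172 (plus) for Isx, chr5:147307271-147307499 (minus) for Cdx2, chr2:91921939-91922188 (plus) for Chrm4 and chr11:88293793-88294042 (plus) for Ccdc182. The Chrm4 window is not next to the GENCODE gene, which starts at 91927249. Capitals mark matches on either strand to letters commonly bound by transcription factors, which are CTTTGA (the TCF/LEF family), ACAATG (the SOX family), AGATAA (zinc-finger factors of the family that includes Gata3), TGTTTAC (the forkhead family) and AAGGTCA (the nuclear receptor NR5A1).
Isx: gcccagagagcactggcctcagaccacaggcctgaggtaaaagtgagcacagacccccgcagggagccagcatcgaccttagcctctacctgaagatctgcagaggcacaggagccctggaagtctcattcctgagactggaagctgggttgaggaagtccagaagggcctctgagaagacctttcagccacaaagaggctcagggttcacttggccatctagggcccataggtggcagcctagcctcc
Cdx2: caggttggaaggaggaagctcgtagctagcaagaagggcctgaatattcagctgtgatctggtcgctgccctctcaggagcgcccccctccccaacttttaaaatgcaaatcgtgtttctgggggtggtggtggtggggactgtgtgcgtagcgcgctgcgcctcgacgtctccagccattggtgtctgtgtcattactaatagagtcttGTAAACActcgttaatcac
Chrm4: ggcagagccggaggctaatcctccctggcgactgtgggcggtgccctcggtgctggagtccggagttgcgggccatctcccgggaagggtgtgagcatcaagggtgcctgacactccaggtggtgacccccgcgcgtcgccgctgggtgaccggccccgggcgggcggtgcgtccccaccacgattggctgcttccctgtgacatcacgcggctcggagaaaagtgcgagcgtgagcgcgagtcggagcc
Ccdc182: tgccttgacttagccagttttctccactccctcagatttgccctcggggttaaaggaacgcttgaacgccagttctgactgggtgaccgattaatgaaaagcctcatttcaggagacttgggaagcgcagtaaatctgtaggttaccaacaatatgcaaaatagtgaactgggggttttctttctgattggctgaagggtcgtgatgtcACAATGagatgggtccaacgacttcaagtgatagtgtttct
The Cdx2 window holds 1 forkhead match and the Ccdc182 window 1 SOX match, and the other windows hold none. Promoters were found for 86 of the 142 lower genes (102 entries). Over 250 bases before the start, TCF/LEF letters were in 14.7% of the entries against 13.8% of all 32851 promoters, SOX in 4.90% against 10.7%, the Gata3-family letters in 13.7% against 9.99%, forkhead in 1.96% against 3.17% and NR5A1 in 4.90% against 4.08%. A match is a description of the letters, not a binding site.

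Transcription factors among the other large decreases were Scrt2, a Scratch zinc-finger repressor (−5.28, SE 0.92, adjusted p 0.00809), and Dlx3, a distal-less homeobox gene (−4.76, SE 0.93, adjusted p 0.0142). Calb1, which encodes the calcium-binding protein calbindin, was at 22.5, 9.34, 4.53 and 0.389 CPM in Δ104 and at 0.187 to 0.780 CPM in Δ225 (−4.61, SE 0.76, adjusted p 0.00548). Ccdc182 was at 14.7, 6.19, 2.27 and 0.535 CPM against 0.130 to 0.539 CPM (−4.40, SE 0.59, adjusted p 0.00139). In Calb1 and Ccdc182, 3 Δ104 libraries were above Δ225 and replicate 4 was inside its range. Ces1h, a carboxylesterase gene, fell by 4.11 (SE 0.67, adjusted p 0.00534). It was at 0.292 to 7.47 CPM in Δ104 and at 0 to 0.290 CPM in Δ225. Its groups did not overlap by CPM, but Δ104 replicate 4 and Δ225 replicate 3 both had 6 counts, so library scaling alone parted them. Insyn2b, Adamdec1 and Trim66 fell by 4.33, 4.19 and 3.94. Irx3os, the antisense neighbour of Irx3, fell by 5.98. The strand setting of the counting is not given in the sources used here, so reads of Irx3os cannot be told apart from those of Irx3. Without Δ104 replicate 1, Ccdc182 was still called, while Scrt2, Dlx3, Calb1, Ces1h, Insyn2b, Adamdec1, Trim66 and Irx3os were not.

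Imprinted genes, which are expressed from 1 parental allele, held 2 called members of 27 tested, with a list median of 0.05. Peg13, an imprinted non-coding RNA (chromosome 15, 72805600 to 72810324, minus strand), did not follow the order of the other decreases. It was at 28.9, 21.5, 31.0 and 1.61 CPM in Δ104 and at 0.0967 to 0.390 CPM in Δ225 with a median of 0.138, so the groups did not overlap. Peg13 fell by 7.00 (SE 0.93, adjusted p 0.00139). In WT it was at 36.9, 5.36 and 31.0 CPM, so here Δ225 was the group apart from WT. Phlda2, an imprinted regulator of placental growth, was at 27.0, 7.81, 0.233 and 0.0486 CPM in Δ104 against 0.0883 to 0.435 CPM in Δ225, and fell by 5.07 (SE 1.00, adjusted p 0.0147). Its WT libraries were at 0.0754 to 0.311 CPM, and 2 of its Δ104 libraries were within or below the Δ225 range. Phlda2 was not called without Δ104 replicate 1, while Peg13 was.

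The 6 genes that rose in Δ225 changed by 0.89 to 1.19 log2 units. Fbxo32, the ubiquitin ligase gene atrogin-1 of muscle, was at 4.30, 8.11, 10.9 and 9.97 CPM in Δ104 and ranged from 14.1 to 28.5 CPM in Δ225 (1.19, SE 0.27, adjusted p 0.0406). Cd36, a fatty acid scavenger receptor gene, was at 4.42, 6.88, 8.14 and 7.49 CPM against 12.9 to 18.9 CPM (1.10, SE 0.21, adjusted p 0.0135). Lepr, the leptin receptor gene, was at 2.30, 3.19, 4.53 and 5.16 CPM against 5.18 to 9.59 CPM (1.08, SE 0.23, adjusted p 0.0319). None of these 3 overlapped between the groups. Itih5, Sytl2 and Igfbp3 rose by 1.07, 1.05 and 0.89, and of these Itih5 alone overlapped. Without Δ104 replicate 1, 0 genes were called higher by edgeR's quasi-likelihood test, with 1327 genes of either direction at an unadjusted p under 0.05.

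Sertoli genes were the counterpart of the pre-granulosa list. All 18 were higher in Δ225, with a median log2 fold change of 0.56, but 0 were called and 0 had an unadjusted p under 0.05. The list's summed level was 156, 833, 1873 and 3136 CPM in Δ104 replicates 1 to 4, 1139 to 3366 CPM in Δ225 and 3376 to 3845 CPM in WT. Sox9, the transcription factor that directs Sertoli differentiation, was at 11.6, 57.8, 116 and 88.9 CPM in Δ104 and at 75.7 to 128 CPM in Δ225 (0.50, SE 0.58, adjusted p 0.841). Amh, which encodes the hormone that regresses the Müllerian duct, was at 0.361, 155, 489 and 1166 CPM against 58.7 to 1440 CPM (0.79, SE 1.39, adjusted p 0.912). The hedgehog ligand gene Dhh and the prostaglandin synthase gene Ptgds were at 0.417 and 0.778 CPM in Δ104 replicate 1 and at 67.2 and 136 CPM in replicate 4. The groups overlapped at these 4 genes.

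The balance of both lists, the mean log2 CPM of Sertoli genes minus that of pre-granulosa genes, placed each library on 1 scale. It was −5.14, −0.49, 1.90 and 3.59 in Δ104 replicates 1 to 4. In Δ225 it was 2.64, 2.82, 2.33, 3.05, 3.50 and 3.24 in replicates 1 to 6, and in WT 3.33, 3.75 and 3.45. Of the Δ104 libraries 3 lay below all Δ225 libraries and 1 lay above them.

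Steroidogenic genes were higher in Δ225 in most cases, without a call. Of 11 tested fetal Leydig cell genes 10 were higher, 4 of them at an unadjusted p under 0.05, with a median log2 fold change of 1.11. Cyp17a1, an enzyme of androgen synthesis, was at 3.30, 165, 582 and 647 CPM in Δ104, at 157 to 1137 CPM in Δ225 and at 501, 287 and 461 CPM in WT (1.34, SE 0.99, adjusted p 0.701). Cyp11a1, the side-chain cleavage enzyme, had a log2 fold change of 1.23 (SE 1.11) and Hsd3b1 of 1.11 (SE 0.51). Δ225 replicate 3 was the lowest of its group for Cyp17a1, Cyp11a1 and Hsd3b1. The 1 lower gene of the list was Hsd3b6 (−1.34, SE 0.91), with means of 11.4 CPM in Δ225 and 28.6 CPM in Δ104. Adrenal-like steroidogenic genes were higher in all 5 cases, each at an unadjusted p under 0.05 and 0 called, with a median of 2.79. Cyp11b1, the adrenal 11-beta-hydroxylase, was at 0.0278, 0.0983, 1.05 and 1.51 CPM in Δ104, at 0.532 to 23.3 CPM with a median of 10.2 in Δ225 and at 2.16, 0.369 and 1.35 CPM in WT (4.07, SE 1.06, adjusted p 0.0825). Mc2r, the corticotropin receptor gene, was at 0.861 to 4.43 CPM in Δ104 and 5.27 to 15.1 CPM in Δ225 with no overlap (1.68, SE 0.41, adjusted p 0.0656). Both were called without Δ104 replicate 4 and without Δ225 replicate 3, with log2 fold changes of 4.93 and 4.33 for Cyp11b1 and 2.05 and 1.79 for Mc2r. Cyp21a1, at 2.79 (SE 1.04), is uncertain, since a near-identical pseudogene exists.

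**Figure D3:**
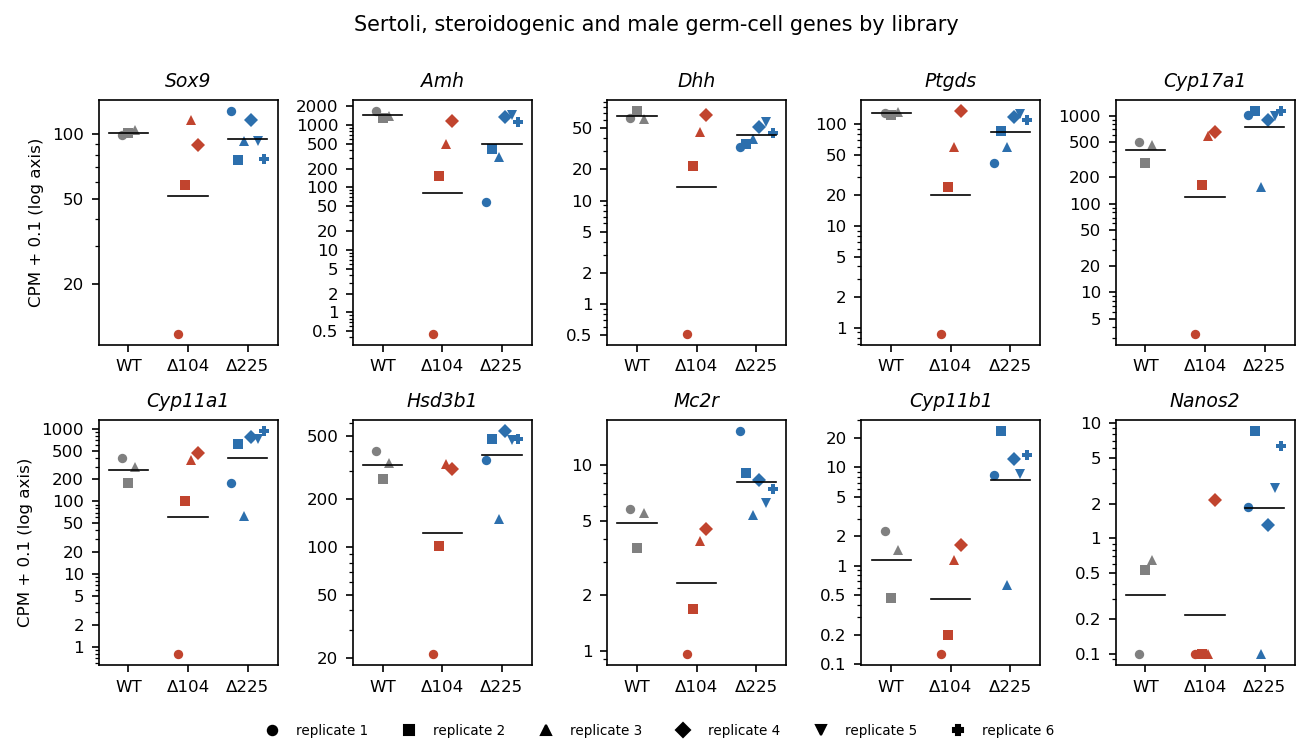
CPM + 0.1 (log axis, its own scale in each panel) of 4 Sertoli, 5 steroidogenic and 1 male germ-cell gene by library, with colours, shapes and lines as in the plot of pre-granulosa genes. Δ104 replicate 1 is the lowest point for the Sertoli and steroidogenic genes, at 11.6 CPM for Sox9 and 3.30 CPM for Cyp17a1, while Δ225 stands above WT in 5 of 6 libraries for Cyp11b1.

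Germ-cell genes gave 1 call. Of 14 tested meiotic genes Rec8, a meiotic cohesin subunit gene, passed the test. It was at 98.6, 68.0, 6.45 and 8.66 CPM in Δ104 and at 2.37 to 14.4 CPM in Δ225, and fell by 2.56 (SE 0.56, adjusted p 0.0346), with Δ104 replicates 1 and 2 above all Δ225 libraries and the other Δ104 libraries among them. Stra8, the retinoic acid target that licenses meiotic entry, was at 76.7, 50.5, 1.34 and 1.65 CPM against 0 to 9.27 CPM (−3.13, SE 1.04, adjusted p 0.217). Meioc and Meiosin, which act in the same step, had log2 fold changes of −2.11 (SE 0.79) and −1.41 (SE 0.65). The list was mixed, with 9 genes lower and 5 higher in Δ225 and a median of −0.19. Sycp1, a meiotic gene of the same list, was higher in Δ225 at 0.77 (SE 0.80). The summed meiotic level was 55.6 to 540 CPM in Δ104 and 84.9 to 648 CPM in Δ225. Nanos2, an RNA-binding factor of male germ cells, was at 0 CPM in Δ104 replicates 1 to 3, 2.04 CPM in replicate 4 and 0 to 8.42 CPM in Δ225 (2.74, SE 1.29, adjusted p 0.454). Of 8 tested male germ-cell genes and 9 pan-germ-cell genes 0 were called, 3 and 0 had an unadjusted p under 0.05, and the medians were 0.98 and 0.43. The summed pan-germ-cell level was 232 to 1280 CPM in Δ104, 557 to 1428 CPM in Δ225 and 27.5 to 1019 CPM in WT. Germ-cell content thus varied within each group, and its part in the meiotic values was not tested.

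Of the mesonephric, blood, macrophage, endothelial and muscle markers Gata3 alone was called. This zinc-finger factor gene, on the mesonephric list of 11 but not limited to that tissue, fell by 1.93 (SE 0.44, adjusted p 0.0429), while the list median was 0.66. The summed mesonephric level was 28.8 to 59.1 CPM in Δ104 and 47.6 to 88.4 CPM in Δ225. All 9 blood genes were lower in Δ225, with 0 called, 4 at an unadjusted p under 0.05, a median of −1.42 and summed levels of 15653 to 34214 CPM in Δ104 and 3478 to 21106 CPM in Δ225. All 11 muscle genes were higher, with 0 called, 9 at an unadjusted p under 0.05 and a median of 2.13. Their sum was 77.5 to 247 CPM in Δ104, 201 to 367 CPM in 5 Δ225 libraries and 1235 CPM in Δ225 replicate 3. Of 15 mitochondrially encoded genes 14 were higher, with 0 called, 8 at an unadjusted p under 0.05 and a median of 0.92. Their sum was 131185 and 55391 CPM in Δ225 replicates 1 and 2. In Δ225 replicates 3 to 6 it was 26404 to 30295 CPM, within the Δ104 range of 26103 to 33406 CPM. The part of these levels in the called genes, Fbxo32 among them, was not tested. Among 12 cell-cycle, 8 macrophage, 8 endothelial, 8 hedgehog and 11 interstitial progenitor genes 0 were called, with medians of 0.07, −0.08, 0.25, 0.35 and 0.23. At an unadjusted p under 0.05 these lists held 3 interstitial progenitor genes and 0 others, and the 6 tested Y-linked genes held 0, with a median of 0.45.

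**Figure D4:**
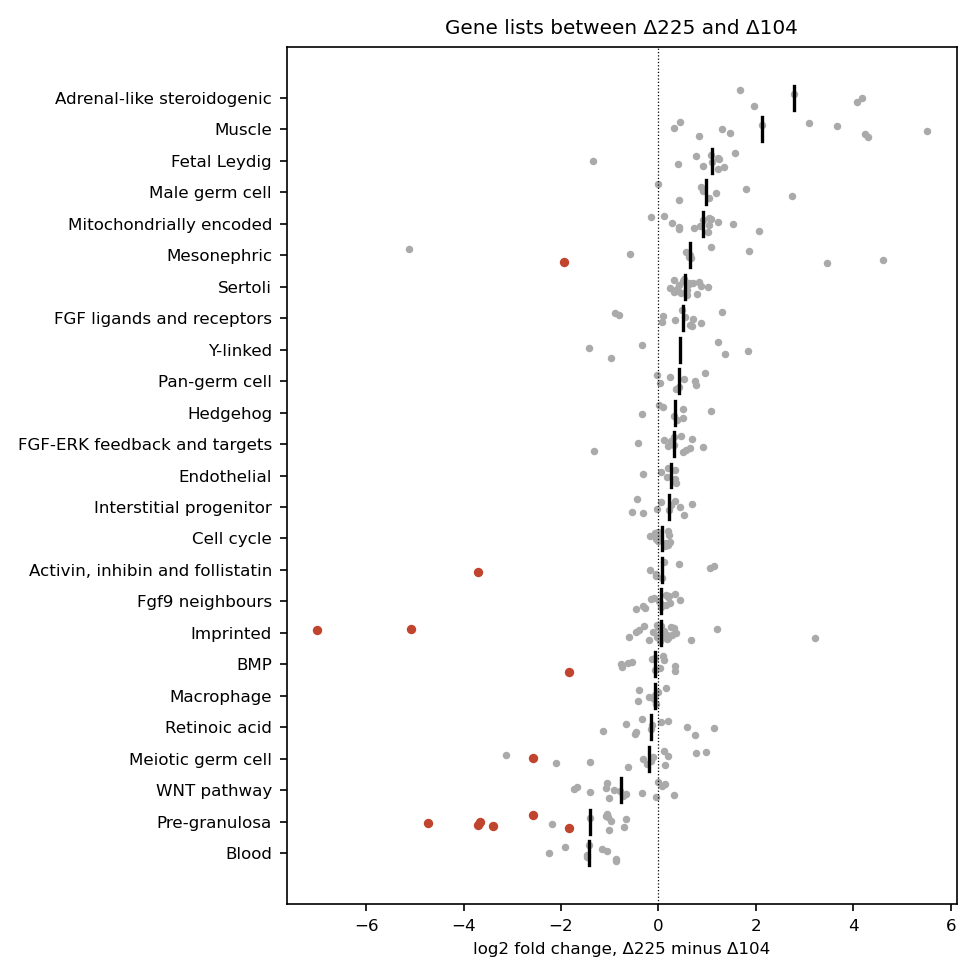
Log2 fold changes (Δ225 minus Δ104) of the tested genes of the 25 lists, 1 row per list ordered by median; red points are called genes, grey points are not, black bars are list medians and the dotted line is the median of all genes tested. The pre-granulosa row holds 6 red points below −1.8, and the Sertoli row lies to the right of 0 with none.

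The called genes were also read in libraries outside both groups. Δ93 against WT and Δ306 against WT share no library with Δ225 against Δ104. Of the 142 genes lower in Δ225, 133 (93.7%) were called higher in Δ93, where 7.23% of all genes were, and they make up 8.02% of the 1659 such genes. In Δ306, 108 (76.1%) were called higher, where 2.96% of all genes were, and they make up 15.9% of the 680. Both deletions held 107 of the 142, Δ93 alone 26, Δ306 alone 1 and neither 8. Foxl2 was higher by 7.01 in Δ93 and 6.21 in Δ306, Irx3 by 5.38 and 4.90, Isx by 8.31 and 7.74, and Rec8 by 5.04 and 4.41. The exception was Peg13, at −7.36 in Δ93 and −0.82 in Δ306. All 6 genes higher in Δ225 were called lower in Δ93 (6.84% of all genes were) and 3 were in Δ306 (3.46%). These comparisons share 1 estimate of the spread and 1 low-count filter, which used the Δ93 and Δ306 libraries too. Some of the called genes were not tested when Δ225 and Δ104 were filtered alone. For genes low in WT and Δ225, a high level in Δ93 or Δ306 can help to pass the filter. The shares above are therefore not independent of these libraries.

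**Figure D5:**
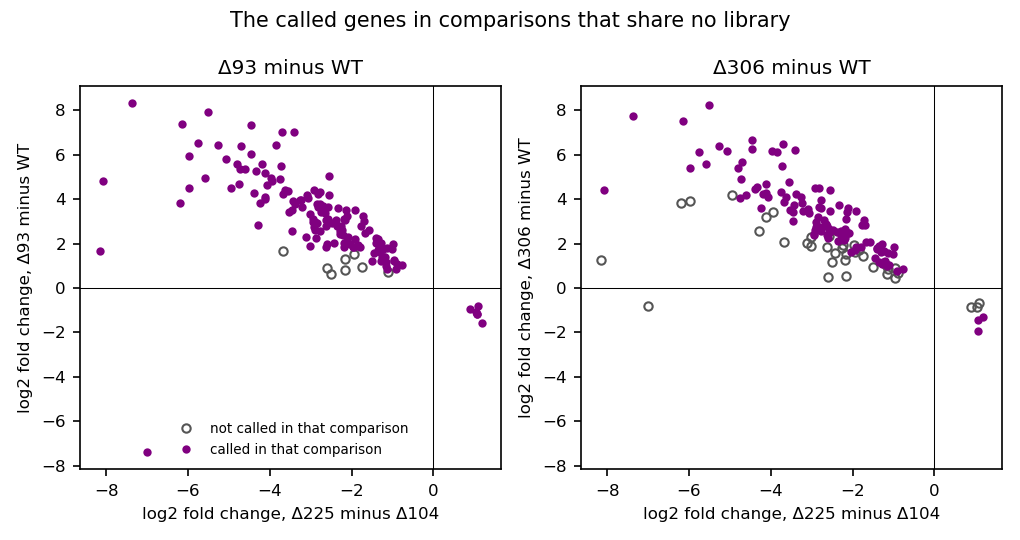
Log2 fold changes of the 148 called genes in Δ225 minus Δ104 (horizontal) against Δ93 minus WT (left panel) and Δ306 minus WT (right panel); filled points are genes called in the panel's own comparison. All genes but Peg13 have opposite signs on the axes, and genes without counts in Δ225 are drawn at their fitted values.

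The same genes were also read against WT, in comparisons that share libraries with the one above. Of the 142, 141 were above WT in Δ104 and 5 were called, with a median log2 fold change of 2.15. In Δ225, 43 were above and 99 below WT, 2 were called lower, and the median was −0.24. At the 6 higher genes the medians were −0.60 in Δ104 and 0.46 in Δ225, and all 6 lay below WT in the former and above it in the latter.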

How the data were processed

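Polyadenylated RNA of XY gonads at embryonic day 13.5 was sequenced with a strand-specific kit, per the labels' protocols. The authors deposited raw counts per gene for 22 libraries and 57186 identifiers, aligned to mm10 with STAR per the submitters' processing notes; the annotation release is not given in the sources used here. Their deposited DESeq2 table of the same comparison gives log2 fold changes, p-values, a mean signal per gene and a Wald score, per the file headers. It was used only for the count set beside the calls, and for symbols. All 22 libraries were fitted with edgeR 4.0.16 (R 4.3.3, limma 3.58.1): filterByExpr, TMM, the quasi-likelihood F-test of Δ225 against Δ104 (residual degrees of freedom 17) and Benjamini-Hochberg adjustment over 22941 genes. Genes with an adjusted p under 0.05 were called. CPM values use TMM-scaled library sizes, and the SE is the log2 fold change divided by the square root of F. List balances used log2 CPM with a prior count of 2. The test was tried on simulated counts with known changes. DESeq2 1.42.0 was an alternative. Coordinates are GENCODE M21 on GRCm38 (51880 identifiers matched), and sequences are from RefSeq on GRCm38.p6.

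The text names Fgf9, the 15 largest decreases and up to 10 largest increases among called genes with a mean of at least 1 CPM, and, in 25 lists of 305 entries, called members and up to 4 members in list order. Xist and Gm33321 are named outside this rule. The comparison, the lists and the rule were chosen with earlier results of these data known. Of the called genes 34 have no name and, apart from Gm33321, are counted only. Meis1 knockout libraries and the separate WT and Δ306 tables were not used. Depth was 11.6 to 53.4 M counts. Floors and counts cover counting error only, since reads carry no molecular identifiers.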

Additional observations from a re-analysis of the deposited data

Results flagged for a closer look

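Among 109 groups of 4 to 6 libraries examined, 12 held a library whose gap to its nearest neighbour was large for the group's whole range. The rule would flag about 1 in 20 groups of independent, normally spread values. These CPM values are partly low and come from genes that vary together, so that rate need not hold, and an excess was not tested. Of the 12, 6 came from Δ225 replicate 3. That library was the highest of its group for Fgf9 at 16.5 CPM (others 3.69 to 6.36), Fst at 14.6 CPM (2.17 to 3.90), Cd36 at 18.9 CPM (12.9 to 13.8) and Dlx3 at 0.725 CPM (0 to 0.174). It was the lowest for Rspo1 at 13 CPM (others 21.8 to 26.5) and Cyp17a1 at 157 CPM (897 to 1137).

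Δ225 replicate 1 stood apart in its mitochondrial share of 11.6% (others 2.56% to 5.47%), in Meioc at 18.0 CPM (1.74 to 6.59) and in Peg13 at 0.390 CPM (0.0967 to 0.187), though this Peg13 value was still below every Δ104 library. Isx was at 0.0662 CPM in Δ225 replicate 4 (others 0 to 0.0234) and Ccdc182 at 0.539 CPM in Δ225 replicate 5 (0.130 to 0.244). In Δ104, Nanos2 was at 2.04 CPM in replicate 4 and at 0 in the others.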

How the results depend on the processing

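The count of 148 called genes moved to 456 with DESeq2, to 1 in a fit of the 2 groups alone (18728 genes tested), to 23 with the Δ225 libraries under 30 M counts only, and to 1170 with those above. Leaving out 1 library gave 9 to 557. Under RLE normalization, no composition factor and no low-count filter it stayed within 1.5 times. Of 29 named called genes 0 changed sign over the 18 alternatives, and 1, Gm33321, was called under all of those that tested it (16). The fit of the 2 groups alone and the replicate block did not test Gm33321. Of 23 not called, 7 were called under some alternative and 3 changed sign. Amh was at −0.78 and Inha at −0.28 with the Δ225 libraries under 30 M counts only, and Dhh at −0.036 to 0.96 when leaving out 1 library, the lower value being without Δ104 replicate 1. The cause was not tested. Fgf9 was not called under any alternative, with log2 fold changes of 0.05 to 0.95, or 0.08 to 0.77 when leaving out 1 library.

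Replicate numbers are shared between the groups. For a check of pairing, each gene's group mean was first subtracted from its log2 CPM. The correlations below therefore compare deviations within the groups, not expression levels. By these deviations same-numbered libraries correlated at 0.09, 0.07, 0.17 and 0.33 over genes, and not every library correlated best with its own number. Δ104 replicate 4 correlated at 0.33, 0.46 and 0.51 with the deeper Δ225 replicates 4 to 6. With the shallower Δ225 replicates 1 to 3 it correlated at −0.31, −0.24 and −0.36. Whether libraries of the groups share a litter or a batch was not tested. With a replicate block in the 10 libraries edgeR's quasi-likelihood test called 0 genes, with 827 at an unadjusted p under 0.05. Replicates 5 and 6 exist in Δ225 only, so that fit compared the groups through replicates 1 to 4, with few residual degrees of freedom. Depth limits what low genes can show: with 0 counts in all Δ225 libraries, Nr2e3, named after its values were seen, was at least 61.7-fold lower if the 6 libraries together are set at 3 counts.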

Other observations

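Among the 144 called genes with coordinates, 33 had another called gene within 500 kb, in 25 pairs, all of them lower in Δ225. These neighbours, named after their values were seen, include Kcnq1, Phlda2 and Slc22a18 on chromosome 7, a chromosome that holds an imprinted domain with these 3 genes. On chromosome 8, Irx3, Irx3os and Irx5 lay among 3 called genes without a name. The guanylate-binding protein genes Gbp2 and Gbp2b on chromosome 3 and the pair Lypd6 and Lypd6b on chromosome 2 are related in sequence, and their read counts are uncertain for that reason. Whether so many neighbours differs from other gene sets of this size was not tested.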
